A study of Mus musculus with 2 samples.

Results

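The cadherins and protocadherins described here are the 34 mouse genes whose symbol is Cdh or Pcdh followed by a number, of 43346 gene rows in the deposited tables, with Pcdh11x kept and the endothelial gene Cdh5 left out. The rule reads symbols and no measured value, though the family was proposed with earlier results of these data known. They comprise 22 cadherins (5 type I classical, 12 type II and 5 others) and 12 non-clustered protocadherins (4 of the delta-1 group, 5 of the delta-2 group and 3 others). Their RNA was measured in 1 group of 2 libraries, each made from 10 ng of total RNA, small RNA left out, with spike-in RNA added. Replicate 1 was the neural tube of a pup of the first pregnant female and replicate 2 that of a pup of the second, both of strain B6NCrl at embryonic day 14.5, with no treatment or altered allele named. Both carry the sex label "pooled male and female", although each was 1 tube. With a single group there was no contrast between conditions, so the results are levels, transcript composition and the difference between the 2 tubes, without p-values.

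Cadherins are calcium-dependent adhesion proteins that span the membrane and bind cadherins on the neighbouring cell. The cytoplasmic tail of classical cadherins of type I and type II binds catenins, which link the contact to actin, and type I and type II proteins differ in the tryptophans that swap between partners. Delta protocadherins adhere more weakly, do not bind beta-catenin in the same way, and several of the delta-2 group bind the WAVE complex that starts actin branching. In the developing neural tube these families hold the neuroepithelium together and mark nuclei, motor pools and axon tracts.

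The gene rows summed to 32255343 counts in replicate 1 and 25428728 in replicate 2, and spike-in rows took 3.31% and 2.29% of all deposited counts. The 2 tubes differed in other ways too. Xist, the RNA that coats an inactive X chromosome, had 25148 counts in replicate 1 and 13 in replicate 2. The 11 meningeal and fibroblast markers summed to 87.4 TPM in replicate 1 and 1082 in replicate 2. TPM is the deposited transcript abundance, corrected for transcript length and library size. The 9 sensory ganglion markers summed to 25.4 and 173.8 TPM. Of these sums Calca alone held 22.45 and 16.15 TPM, and each of the other sensory markers was below 1 TPM in replicate 1. The 10 neuronal markers summed to 5593 and 5521 TPM, all detected and none differing by 1.5-fold, so the defining markers of neural tissue were present in both tubes. The 10 progenitor markers summed to 2459 and 2686 TPM, with 1 (Nes) higher in replicate 2. The 9 motor neuron markers summed to 170.3 and 490.5, with 4 higher (Prph, Isl1, Aldh1a2 and Isl2). Chat (2.97 and 2.91 TPM), Slc18a3 (24.82 and 26.62), Slc5a7, Mnx1 and Foxp1 were within 1.5-fold. The 10 markers of microglia and macrophages summed to 100.1 and 192.4 TPM, with 7 higher in replicate 2, while C1qa, Cx3cr1 and P2ry12 were within 1.5-fold. The 7 choroid plexus markers summed to 4.05 and 4.19, with none at 1 TPM in both libraries.

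Of the 34 genes, 29 reached 1 TPM in both libraries and 5 did not (Cdh1, Cdh19, Cdh17, Cdh26 and Cdh16). Across all gene rows that share was 34.7%, and across protein-coding rows it was 60.8%. The median level over the 34 genes was 14.9 TPM in replicate 1 and 12.1 in replicate 2, where the median protein-coding row stood at 4.88 and 5.67 TPM. Neurons, progenitors and every other cell of the tube contributed to each value, so fewer cells of a type and less RNA per cell cannot be told apart. The 34 genes summed to 935 TPM in replicate 1 and 947 in replicate 2, and the 5 highest by mean (Pcdh9, Cdh2, Cdh13, Cdh8 and Cdh11) held 58.7% and 61.9% of it. The cadherins summed to 565 and 582 TPM and the protocadherins to 370.3 and 365 TPM.

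**Figure D1:**
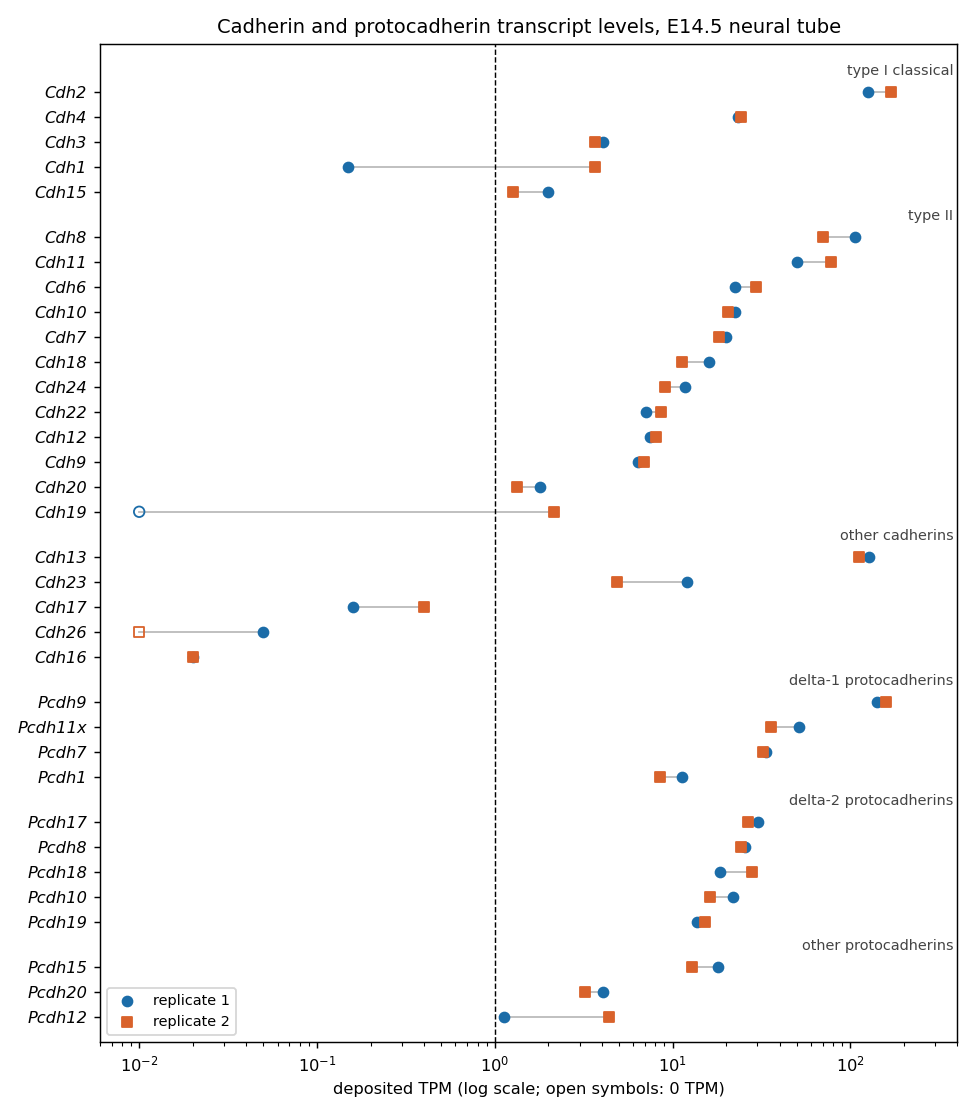
Deposited TPM (log axis) of each gene in replicate 1 (circles) and replicate 2 (squares), joined by a line and arranged by subfamily, with the dashed line at 1 TPM and open symbols for 0. Pcdh9, Cdh2, Cdh13 and Cdh8 lie at 70.6 TPM or above in both libraries, and the longest lines belong to Cdh19 and Cdh1.

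Among the type I classical cadherins, Cdh2 (N-cadherin, the main adhesion protein of neuroepithelial junctions) lay far above the other 4. Its level was 125 TPM in replicate 1 and 169 in replicate 2, a mean of 147 ± 31.1 (SD, n = 2, as for every ± below). Cdh4 (R-cadherin), a neural relative of Cdh2, was at 23.4 and 24.1 TPM. Both genes were detected in both tubes, and the range of Cdh2 lay wholly above that of Cdh4. Cdh3 (P-cadherin), known from epithelia, was at 4.04 and 3.66 TPM. Cdh15 (M-cadherin), known from skeletal muscle and satellite cells, was at 1.98 and 1.27 TPM. Cdh1 (E-cadherin), the epithelial cadherin, was at 0.15 TPM in replicate 1 and 3.66 in replicate 2, so it was below the 1 TPM limit in the first tube and level with Cdh3 in the second.

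The type II cadherins formed the broadest part of the family, with 11 of 12 detected in both tubes. Cdh8 led them at 105.5 TPM in replicate 1 and 70.6 in replicate 2 (mean 88.0 ± 24.7). Cdh11, which is expressed in mesenchyme as well as in neural tissue, was at 50.4 and 77.4 TPM (mean 63.9 ± 19.1). The order of Cdh8 and Cdh11 was reversed between the tubes, and their ranges overlapped. A middle tier held Cdh6 at 22.4 and 29.5 TPM, Cdh10 at 22.4 and 20.5, and Cdh7 at 19.9 and 18.2. Cdh6, Cdh7 and Cdh10 are cadherins of neuronal subsets and hindbrain or spinal territories. Cdh18 followed at 16.1 and 11.3 TPM and Cdh24 at 11.8 and 9.12 TPM. Cdh22 was at 7.09 and 8.58 TPM, Cdh12 at 7.5 and 8.02, and Cdh9 at 6.39 and 6.94. Cdh22, Cdh12 and Cdh9 are neural type II cadherins, and each differed little between the tubes. Cdh20, a relative of Cdh7, was at 1.79 and 1.33 TPM. Cdh19, known from Schwann cell precursors, was listed at 0 in replicate 1 and at 2.14 TPM in replicate 2.

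The remaining 5 cadherins belong to neither classical type. Cdh13 (T-cadherin), which is held by a lipid anchor and has no cytoplasmic tail, was at 127 TPM in replicate 1 and 111 in replicate 2 (mean 119 ± 11.3), the third highest level of the 34 genes. Cdh23, a component of the tip link of sensory hair cells, was at 12.0 and 4.86 TPM (mean 8.44 ± 5.06). Cdh17 and Cdh16, known from intestine and kidney, were at 0.16 and 0.40 TPM and at 0.02 and 0.02 TPM. Cdh26, a cadherin known from inflamed epithelium, was at 0.05 TPM in replicate 1 and listed at 0 in replicate 2. Only 2 of these 5 genes were therefore detected in both tubes.

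All 4 delta-1 protocadherins were detected. Pcdh9 had the highest level of all 34 genes, at 141 TPM in replicate 1 and 158 in replicate 2 (mean 149.5 ± 12.0), above 95.3% of protein-coding rows. Pcdh11x, which lies on the X chromosome, was at 51.2 and 35.8 TPM (mean 43.5 ± 10.9). Pcdh7 (NF-protocadherin), studied for its part in neural tube and axon development, was at 33.4 and 32.5 TPM, with a standard deviation of 0.644 TPM. Pcdh1 was the lowest of the group at 11.4 and 8.44 TPM. In both tubes the order was Pcdh9, Pcdh11x, Pcdh7 and Pcdh1.

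The 5 delta-2 protocadherins, all detected, lay within a narrower band. Pcdh17, which acts at synapses and in axon growth, was at 30.3 and 26.6 TPM. Pcdh8 (paraxial protocadherin, or arcadlin) was at 25.7 and 24.1 TPM, and Pcdh18 at 18.5 and 27.9. The 3 genes changed places between the tubes, with Pcdh17 first in replicate 1 and Pcdh18 first in replicate 2. Pcdh10 (OL-protocadherin), which binds the WAVE complex, was at 21.9 and 16.3 TPM. Pcdh19, an X-linked gene whose loss causes an epilepsy that affects females, was at 13.7 and 15.2 TPM. Of the other protocadherins, Pcdh15, the partner of Cdh23 in the tip link, was at 18.1 and 12.9 TPM. Pcdh20 was at 4.06 and 3.22 TPM. Pcdh12, known from endothelium, was at 1.13 and 4.37 TPM.

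By subfamily, the median over members was highest for the delta-1 protocadherins, at 42.3 TPM in replicate 1 and 34.1 in replicate 2. The delta-2 median was 21.9 and 24.1 TPM, the type II median 13.9 and 10.2, the type I median 4.04 and 3.66, and that of the other protocadherins 4.06 and 4.37. The type II median exceeded the type I median by 1.56 and 1.27 on the log2(TPM + 1) scale (mean 1.42 ± 0.211), but with means over members in place of medians the difference was -0.64. Cdh2 alone carried most of the type I sum of 155 and 202 TPM. The delta-1 median exceeded the delta-2 median by 0.92 and 0.48 (mean 0.70 ± 0.307). These differences have 2 libraries behind them and no test.

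When the 31 genes with a mean of at least 1 TPM were ordered by mean, the ranges of neighbours over the 2 tubes overlapped in 23 of 30 pairs. The order within most of the list was thus not resolved. The 7 pairs that did not overlap were Cdh13 above Cdh8, Pcdh11x above Pcdh7, Pcdh7 above Pcdh17, Pcdh8 above Cdh4, Cdh7 above Pcdh15, Cdh12 above Cdh9 and Cdh9 above Cdh3. With 2 values per gene, a lack of overlap does not settle an order. Pcdh8 and Cdh4 were parted only by 24.14 against 24.11 TPM, both in replicate 2. Over transcripts with a complete coding sequence, Cdh8 lay above Cdh13, at means of 76.8 and 68.55 TPM. Pcdh9 and Cdh2, the first and second by mean, overlapped, and Cdh2 was the higher of the pair in replicate 2.

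Gene levels sum over annotated transcripts, and for several of these genes most of that sum did not lie in a transcript model with a complete coding sequence. Of the 24 genes with a mean of at least 5 TPM, 6 had a single transcript model in the tables and 18 had more. Among the 18, the transcript with the most TPM was the same in both tubes for 13 and differed for 5 (Pcdh11x, Pcdh8, Cdh7, Pcdh19 and Cdh18). The leading transcript held under 90% of the gene in at least 1 tube for 16 of them, and in 6 it was not a complete coding model. Transcript names are those of the annotation, and shares are the deposited percent of the gene's TPM.

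**Figure D2:**
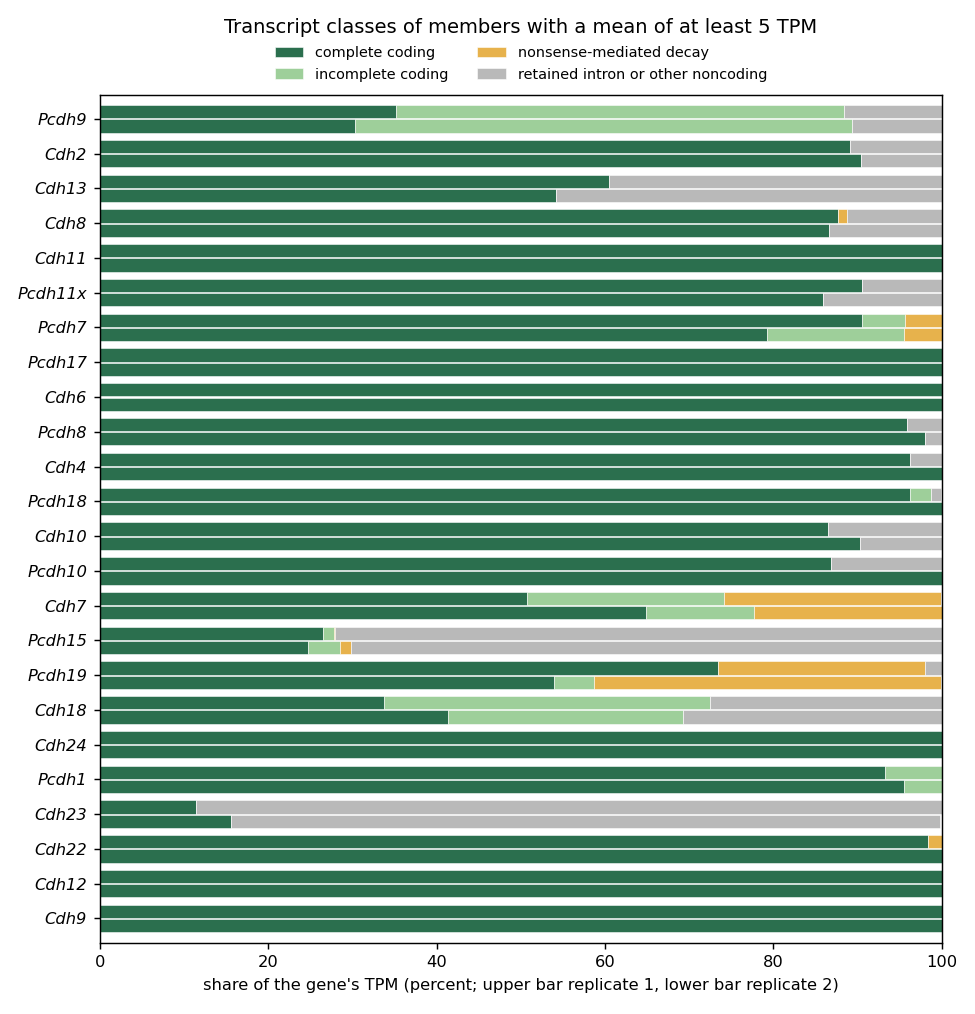
Share of each gene's TPM (percent) in complete coding, incomplete coding, nonsense-mediated decay and noncoding models for the 24 genes with a mean of at least 5 TPM, with replicate 1 as the upper bar and replicate 2 as the lower. Cdh23, Pcdh15, Pcdh9 and Cdh18 have the shortest complete coding segments, at 11.4%, 26.5%, 35.1% and 33.8% in replicate 1. A complete model is a coding model not marked incomplete in the annotation, so the class counts Cdh7-208, which has 76 codons.

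Pcdh9 was the most affected of the abundant genes. Its leading transcript, Pcdh9-205, is a model of 3014 bases whose coding sequence is incomplete, and it held 52.8% of the gene in replicate 1 and 58.5% in replicate 2. Complete coding models of Pcdh9 amounted to 49.6 and 47.9 TPM (mean 48.7 ± 1.17), which gives the gene rank 5 in place of rank 1, and held 56.3% and 50.3% of its expected counts. On the same restricted scale Cdh2 was first at 132 ± 29.3 TPM, followed by Cdh8 at 76.8 ± 22.2, Cdh13 at 68.6 ± 11.7 and Cdh11 at 63.9 ± 19.1. Cdh13 lost most to Cdh13-207, a processed transcript of 620 bases without a coding sequence, with 20.3% and 28.7% of the gene's TPM. Its complete transcript Cdh13-201 held 60.5% and 54.2%. By expected counts Cdh13-207 had only 272 and 249, and Cdh13-201 held 86.8% and 85.0% of the gene. Counts divided by the length of the longest complete coding model gave Cdh2 first at 72.6 counts per kilobase of model, after scaling to library size, then Pcdh9 at 50.3, Cdh13 at 47.4, Cdh11 at 37.7 and Cdh8 at 36.6. Both of these scales were chosen after the data had been seen, and both put Cdh2 above Pcdh9.

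The tip-link genes had most of their TPM in noncoding models and most of their expected counts in complete coding ones. Cdh23-206, a processed transcript of 438 bases, held 51.6% of the TPM of Cdh23 in replicate 1 and 52.3% in replicate 2, from 42.7 and 12.9 expected counts. Complete coding models of Cdh23 held 11.4% and 15.6% of its TPM, or 1.37 and 0.76 TPM, but 56.3% and 69.2% of its expected counts. Summed over these models, the counts were 302 and 124, the same order between the tubes as for the gene. Pcdh15, with 41 transcript models, was led by TPM by the retained-intron model Pcdh15-224 at 22.9% and 26.4%. Its complete coding models held 26.5% and 24.7% of the TPM, or 4.79 and 3.18 TPM, and 59.2% and 55.3% of the expected counts, most of them in Pcdh15-234.

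Among the other genes, Cdh2 was split between Cdh2-202 (56.8% and 64.3%) and Cdh2-201 (32.3% and 26.1%), both complete coding models. Cdh18 was led by the incomplete Cdh18-202 in replicate 1 (38.7%) and by the complete Cdh18-203 in replicate 2 (41.3%). Pcdh7-203 held 86.3% and 74.9% of its gene. Pcdh18-201 held 85.9% and 89.1%, Cdh10-202 81.0% and 85.2%, and Pcdh1-202 71.0% and 73.7%. These 4 genes thus had 1 main coding transcript in both tubes. Below the 5 TPM limit, the retained-intron model Pcdh12-204 held 51.0% and 66.3% of Pcdh12.

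Delta protocadherins and some type II cadherins are known to be made with alternative cytoplasmic ends, and the coding transcripts of Cdh8, Pcdh8, Pcdh10 and Pcdh11x carried different ends at levels of the same order. The sequences below are shown because they are where the abundant coding transcripts of a gene part from each other. Each begins with the last 30 coding bases that the compared transcripts share, in lower case, and goes on with up to 30 bases of the coding sequence that follows, in capitals, read from the GENCODE release 21 transcripts (GRCm38) 5′ to 3′ on the strand of the gene.

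In Cdh8 (chr8:99024471-99416471, minus strand) the shared coding stretch of 2089 bases ends at base 99030876. Cdh8-204 goes on to a downstream exon and reaches its stop codon after 44 further bases, for 711 codons before the stop. Cdh8-203 (799 codons) and Cdh8-207 (754 codons) read on in the adjoining bases and are the same over the part printed.
Cdh8-204: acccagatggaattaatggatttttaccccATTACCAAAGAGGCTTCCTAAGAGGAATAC
Cdh8-203: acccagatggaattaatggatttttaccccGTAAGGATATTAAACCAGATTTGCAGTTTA
The level of Cdh8-204 was 43.1 TPM in replicate 1 and 20.5 in replicate 2, or 40.9% and 29.1% of the gene. Cdh8-203 was at 23.3 and 19.7 TPM and Cdh8-207 at 13.8 and 10.1 TPM, together 37.1 and 29.8. The short end thus exceeded the pair that reads on in the first tube and fell below it in the second. Another coding transcript, Cdh8-201, whose end was not compared, was at 10.2 and 9.96 TPM.

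In Pcdh8 (chr14:79766775-79771312, minus strand) the shared stretch of 2334 coding bases ends at base 79768788. The longer Pcdh8-201 (1070 codons) reads on in the adjoining bases, and the shorter Pcdh8-204 (973 codons) skips to base 79768321.
Pcdh8-204: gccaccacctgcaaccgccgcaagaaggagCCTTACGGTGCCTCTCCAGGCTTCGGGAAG
Pcdh8-201: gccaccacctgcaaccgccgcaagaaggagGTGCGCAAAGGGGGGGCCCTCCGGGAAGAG
Pcdh8-204 was at 12.2 TPM in replicate 1 and 13.9 in replicate 2, and Pcdh8-201 at 12.4 and 9.73. The 2 forms were almost equal in the first tube, and the shorter one led with 57.7% in the second.

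In Pcdh10 (chr3:45378398-45435623, plus strand) 3 coding transcripts share 3103 coding bases up to base 45392874 and then use different last exons, which begin at bases 45419407, 45399323 and 45432474.
Pcdh10-202: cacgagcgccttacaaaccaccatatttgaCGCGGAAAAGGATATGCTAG
Pcdh10-203: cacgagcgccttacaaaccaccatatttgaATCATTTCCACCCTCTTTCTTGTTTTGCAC
Pcdh10-201: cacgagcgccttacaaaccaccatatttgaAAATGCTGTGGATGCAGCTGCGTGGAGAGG
Pcdh10-202 reaches its stop codon, the last letters of its line, after 17 further bases. It was at 9.96 TPM in replicate 1 and 8.64 in replicate 2. Pcdh10-203 was at 4.03 and 4.01 TPM and Pcdh10-201 at 3.24 and 2.25. The order of the 3 ends was the same in both tubes.

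In Pcdh11x (chrX:120290259-120910619, plus strand) the shared 3117 coding bases end at base 120594785, and the transcripts go on at base 120637595 or at base 120726501.
Pcdh11x-203: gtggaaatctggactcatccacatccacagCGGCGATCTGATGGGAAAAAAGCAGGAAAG
Pcdh11x-202: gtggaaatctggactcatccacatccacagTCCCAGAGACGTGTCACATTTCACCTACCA
Pcdh11x-203 (1338 codons) was at 28.3 TPM in replicate 1 and 14.1 in replicate 2, whereas Pcdh11x-202 (1320 codons) was at 17.1 and 16. The difference between the tubes in Pcdh11x therefore lay mostly in Pcdh11x-203, and the leading form changed with it.

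Pcdh19 and Cdh7 also had a different leading transcript in each tube, but short or noncoding models took part. Pcdh19-203 (1097 codons) was at 7.26 and 5.23 TPM and Pcdh19-202 (1145 codons) at 2.78 and 2.95. Pcdh19-204, a decay model of 335 bases, was at 3.36 and 6.25 TPM from only 16.1 and 22.1 expected counts. In replicate 2 this short model led Pcdh19 with 41.3% of its TPM. In Cdh7, the decay model Cdh7-204 led in replicate 1 with 25.9%, and Cdh7-208 led in replicate 2 with 33.8%. Cdh7-208 is annotated as coding but stops after 76 codons, within the exon where the full-length Cdh7-202 (785 codons) continues to the next exon, as the following lines show with a stop at the end of the first.
Cdh7-208: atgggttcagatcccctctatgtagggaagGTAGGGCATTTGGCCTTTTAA
Cdh7-202: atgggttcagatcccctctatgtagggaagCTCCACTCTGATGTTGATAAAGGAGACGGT
The full-length Cdh7-202 held 15.0% of the gene in replicate 1 and 15.9% in replicate 2, at 2.97 and 2.90 TPM. Cdh7-201 and Cdh7-209, with the same coding length, were at 0.29 and 1.74 TPM and at 0.80 and 0 TPM. The complete coding class also counts the short Cdh7-208, so for Cdh7 its share exceeds that of the full-length models.

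**Figure D3:**
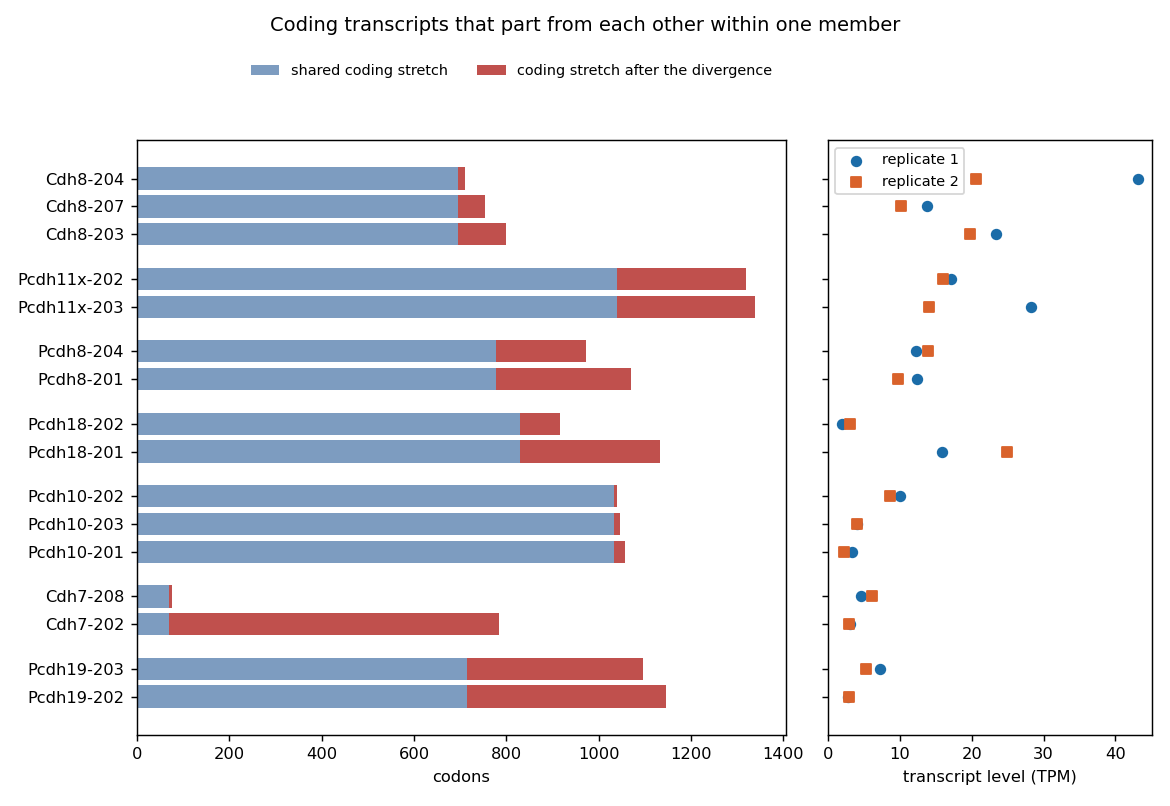
Left, codons of the compared coding transcripts, divided into the coding stretch shared up to the first difference and the coding stretch after it (which may be shared again further on). Right, the level of each transcript in TPM in replicate 1 (circles) and replicate 2 (squares), with Cdh8-204 and Pcdh11x-203 showing the widest gaps.

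The ratio of replicate 2 to replicate 1 was taken from counts scaled by the TMM method, with a 95% interval that covers counting error only. It describes 2 tubes, and the scaling decides its centre: scaling by the spike-in RNA raised log2 ratios of all rows by 0.55. Of the 31 genes whose mean count reached 50, 3 were at least 1.5-fold higher in replicate 2, where 8.23% of all 14211 such rows were, and 3 were at least 1.5-fold higher in replicate 1, where 4.38% of rows were. Counts of 3 genes are too small to be read as an excess over either share. A limit of 2-fold left 1 gene higher in replicate 1. The other 25 genes lay within 1.5-fold. The median log2 ratio was -0.24 for the 31 genes and 0.00 for all rows, so the cadherin median lay below the median of all rows. With spike-in scaling the medians were 0.31 and 0.55. The gap between them cannot change there, because spike-in scaling moves every ratio by the same factor.

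**Figure D4:**
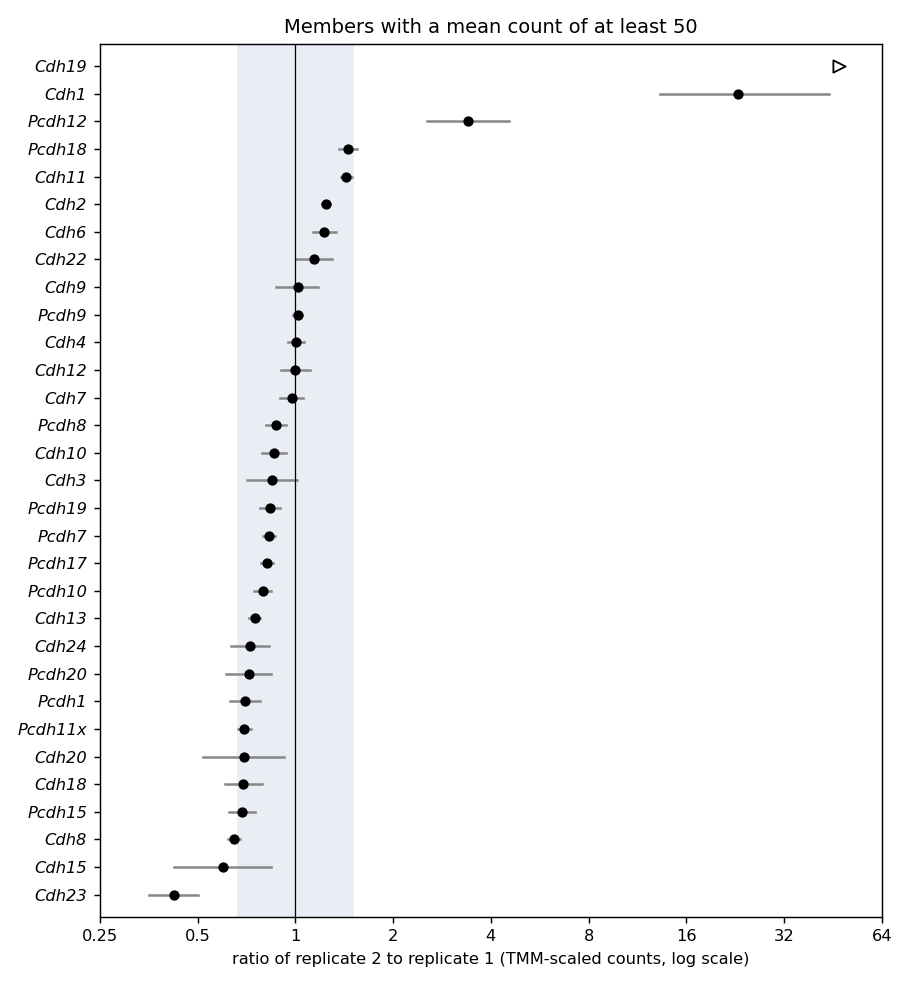
Ratio of replicate 2 to replicate 1 (TMM-scaled counts, log axis) with its 95% counting interval for the 31 genes whose mean count reached 50, with the band within 1.5-fold shaded. The arrowhead marks Cdh19, which had 0 counts in replicate 1, at its ratio of 47.3 with replicate 1 set to a floor of 3 counts. No interval is drawn for Cdh19, and 25 genes lie inside the band.

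The 3 genes higher in replicate 2 were Cdh1, Cdh19 and Pcdh12. Cdh1 had 13 counts in replicate 1 and 237 in replicate 2, a ratio of 23.1 (13.2 to 44.0). The epithelial markers summed to 5.74 and 4.40 TPM, and only 1 of 9 (Epcam) had enough counts for a ratio. Epcam was at 3.03 and 2.48 TPM, the only one detected in both tubes, and Esrp1 was at 0 in both. Of the sensory ganglion markers, 8 of 9 were higher in replicate 2, among them Avil at 0.12 and 22.1 TPM. Also higher there were all 9 meningeal and fibroblast and all 8 endothelial markers with enough counts, and 7 of 10 for microglia and macrophages. The part of any of these cells in the Cdh1 difference was not tested. Cdh19 had 0 counts in replicate 1 and 112 in replicate 2. It was 47.3-fold higher with replicate 1 set to a floor of 3 counts. The lower limit of the interval used for the other genes was 37.8-fold. Of the 8 Schwann cell markers, 6 had enough counts for a ratio and 4 of these were higher in replicate 2. Their sum of 1787 and 1863 TPM is nearly all Fabp7, which neural progenitors also express. No Schwann cell marker was at 0, and the part of these cells in the Cdh19 difference was not tested.

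Pcdh12 had 68 counts in replicate 1 and 182 in replicate 2, a ratio of 3.39 (2.55 to 4.55). All 8 endothelial markers with enough counts were also higher in replicate 2, and the 9 markers of that list summed to 93.0 and 208.6 TPM with none at 0. Cldn5 was at 35.7 and 90.02 TPM and Pecam1 at 7.40 and 13.9. The ratios of these 8 ran from 1.505 (1.352 to 1.677) for Flt1 to 2.76 (2.23 to 3.42) for Emcn, all below that of Pcdh12. Most of their intervals lay wholly below that of Pcdh12, while that of Emcn overlapped it. The part of these cells in the Pcdh12 difference was not tested.

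Just inside the limit, Pcdh18 had a ratio of 1.46 (1.37 to 1.55) and Cdh11 of 1.44 (1.38 to 1.498), and on deposited TPM both passed it, at 1.51 and 1.54. The meningeal and fibroblast markers moved the same way, with 9 of the 9 that had enough counts higher in replicate 2 and none at 0. Col1a1 was at 5.84 TPM in replicate 1 and 195.5 in replicate 2, and Col3a1 at 9.70 and 419. The part of these cells in the values of Cdh11 and Pcdh18 was not tested. Cdh2 had a ratio of 1.25 (1.21 to 1.28), Cdh6 of 1.23 (1.13 to 1.33) and Cdh22 of 1.14 (1.00 to 1.29), above 1 under each scaling.

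The 3 genes higher in replicate 1 were Cdh23, Cdh15 and Cdh8. Cdh23 had 536 counts in replicate 1 and 179 in replicate 2, 2.37-fold higher (1.99 to 2.82), and with spike-in scaling its ratio was 0.619, the single one of the 3 still past 1.5-fold. Cdh15 had 110 and 52 counts, 1.67-fold higher (1.19 to 2.37). The muscle markers moved with Cdh15: all 5 of 10 with enough counts were higher in replicate 1, Acta1 at 18.0 and 7.36 TPM, and the list summed to 46.8 and 25.2 TPM with none at 0. Their part in Cdh15 was not tested. Cdh8 had 6566 and 3365 counts, 1.54-fold higher (1.48 to 1.61), which passed the limit by a small margin, and with spike-in scaling its ratio was 0.949.

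Of the 30 genes with counts in both tubes and a mean count of 50 or more, 19 had a ratio below 1 with TMM scaling and 3 with spike-in scaling. Since spike-in scaling raises every ratio by the same factor of 1.46, the crossing of the other 16 follows from the choice of scale alone. They include Cdh13 (0.749 and 1.10), Pcdh11x (0.697 and 1.02), Pcdh15 (0.687 and 1.00), Cdh18 (0.692 and 1.01), Pcdh10 (0.794 and 1.16), Pcdh7 (0.830 and 1.21), Pcdh17 (0.820 and 1.20) and Pcdh1 (0.701 and 1.02). Of the X-linked pair, Pcdh11x had a ratio of 0.697 from counts, 0.699 from deposited TPM and 0.662 from deposited FPKM, where it passed 1.5-fold. Pcdh19 had a ratio of 0.836 from counts, 1.11 from deposited TPM and 1.05 from deposited FPKM. The near-equal genes with TMM scaling were Pcdh9 (1.02), Cdh9 (1.02), Cdh4 (1.00), Cdh12 (1.00) and Cdh7 (0.974).

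Of the genes that act with cadherins or resemble them, those for catenins, proteases and the WAVE complex were detected almost throughout, and those for desmosomal cadherins hardly at all. All 13 catenins and actin linkers were detected in both tubes. Ctnnb1 (beta-catenin), which joins the cadherin tail to alpha-catenin, was at 210.5 TPM in replicate 1 and 285 in replicate 2, Afdn (afadin) at 102 and 113, Ctnna2 (neuronal alpha-catenin) at 84.8 and 123, and Arvcf, a p120-catenin relative, at 43.9 and 52.4. Ctnna1 (16.4 and 36.5 TPM, ratio 2.08), Vcl (vinculin, 12.9 and 21.8 TPM, 1.59) and Ctnnal1 (11.3 and 18.5 TPM, 1.55) were past 1.5-fold higher in replicate 2, and Ctnna3 (13.1 and 8.81 TPM, 0.614) higher in replicate 1. The widely expressed Ctnna1 and the neuronal Ctnna2 thus both lay below Ctnnb1, and Ctnna2 above Ctnna1, in both tubes.

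All 17 prodomain and shedding proteases were detected. Among them were the gamma-secretase genes Ncstn (91.2 and 104 TPM) and Psenen (91.2 and 85.9) and the sheddase Adam10 (38.5 and 57.0), which cleaves N-cadherin. Furin, a convertase that removes cadherin prodomains, was at 4.25 and 4.33 TPM. Furin was named after its value was seen. Mmp2 (ratio 2.41) and Mmp14 (1.92), matrix proteases of mesenchyme, were past 1.5-fold higher in replicate 2, in the tube where the fibroblast markers were also higher, whose part was not tested.

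Of the 11 WAVE complex genes 10 were detected, led by Brk1 (219.5 and 213 TPM), Cyfip2 (102 and 105), Wasf1 (88.9 and 99.96) and Abi2 (81.1 and 86.5). Nckap1l, the blood-cell form of the Nckap subunit, was past 1.5-fold higher in replicate 2 (1.00 and 1.65 TPM, ratio 1.54). Of the 12 atypical large cadherins 11 were detected, led by Clstn1 (84.3 and 113 TPM), Clstn3 (71.6 and 78.8), Celsr2 (46.4 and 42.0) and Fat1 (27.1 and 29.9). None of those whose mean count reached 50 was past 1.5-fold. Fat2 was listed at 0 in replicate 1 and at 0.07 TPM in replicate 2. Of the 9 desmosomal cadherins, which serve epithelial and heart muscle junctions, only Dsc2 was detected in both tubes, at 1.44 and 1.01 TPM (ratio 0.619), and Dsc1, Dsg1c and Dsg4 were at 0 in both.

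**Figure D5:**
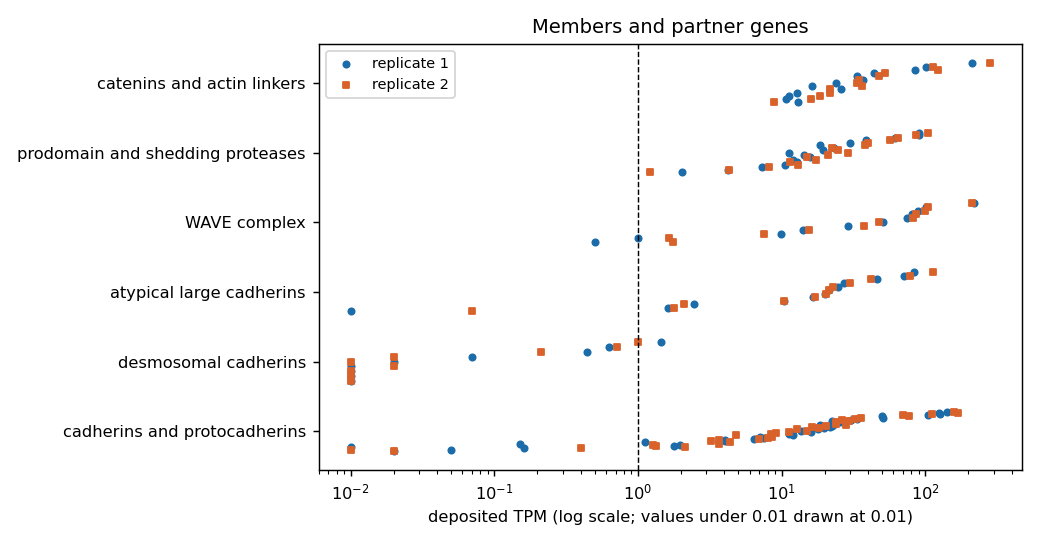
Deposited TPM (log axis) of every gene of the 5 partner lists and of the 34 cadherins and protocadherins, in replicate 1 (circles) and replicate 2 (squares), with the dashed line at 1 TPM and values under 0.01 drawn at 0.01. The desmosomal row lies at the left, with only Dsc2 at 1 TPM in both tubes.

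In the genome, 7 of the 34 genes lie on chromosome 8 and 5 each on chromosomes 14 and 15. The closest neighbours, Cdh3 and Cdh1, are 46.1 kb apart and were at the same 3.66 TPM in replicate 2 but at 4.04 and 0.15 in replicate 1. Pcdh1 and Pcdh12 are 55.0 kb apart at mean levels of 9.90 and 2.75 TPM. Cdh7 lies 748 kb from Cdh19 at 19.0 against 1.07 TPM, and Cdh26 lies 955 kb from Cdh4 at 0.025 against 23.8 TPM. Several members are very long, with Pcdh15 spanning 1550 kb, Cdh12 1140 kb, Cdh13 1041 kb and Pcdh9 877 kb, and they did not lie together in the order of levels. The exons of 7 members overlap another annotated gene, most of it for Pcdh7, which shares 2235 exon bases with 4932441J04Rik on the other strand (2.17 and 1.52 TPM). The strand setting of the counting is not given in the sources used here, so reads of the overlapping parts of Pcdh7, Pcdh8, Pcdh10, Cdh8, Pcdh19 and Cdh9, whose partners lie on the other strand, are uncertain. Those of Cdh12 are uncertain too, since its partner Gm49685 lies on the same strand.

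A promoter window of RefSeq (GRCm38.p6), from 250 bases before to 50 after a start, was matched for 22 of the 34 genes. Among the genes without a window were the abundant Cdh2, Cdh13, Cdh11, Pcdh11x and Cdh4. Of the 25 windows of these genes, 12 (48%) met the usual limits for a CpG island (GC above 50% and an observed-to-expected CG ratio above 0.6, counting the letters CG, which read the same on both strands), where 33.3% of all 32851 windows did. The windows of members held a median of 14 CG pairs and all windows one of 7. Within the 22 matched genes only, 7 of the 11 with the higher mean levels had such a window, and 3 of the 11 with the lower levels. This is a description without a test and leaves out the abundant genes named above. Exceptions in both directions were Cdh22, with 38 CG pairs at 7.84 TPM, and Cdh6, with 8 at 25.95 TPM. For 13 genes the RefSeq start lay within 100 bases of the start of the leading transcript, so for the rest the window may not be the one in use.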

How the data were processed

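Total RNA libraries of 2 neural tubes (1 group) were used. The authors aligned reads to mm10 with GENCODE release 4, per the deposited README texts. No aligner, quantifier or strand setting is given in the sources used here. As the authors deposited them, expected counts are not normalised and estimate how many reads each gene or transcript received, per the file headers. The deposited TPM values and the deposited score column (posterior mean TPM) are scaled per length and library, and the deposited FPKM values by length and depth. In each transcript table, the deposited percent column is a transcript's share of its gene. Symbols, types and coordinates came from GENCODE release 21 (GRCm38) by identifier (42462 of 43346 gene rows, 884 unnamed).

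Levels are deposited TPM. For ratios, expected counts were rounded and scaled by TMM over gene rows (edgeR 4.0.16, R 4.3.3), with exact (Clopper-Pearson) 95% intervals from the counts of both libraries. Reads are not independent molecules, so these intervals reflect counting error only, as does the floor of 3 counts. Called means at least 1.5-fold at a mean count of 50 or more. Alternatives were DESeq2 1.42.0 size factors, spike-in scaling, TPM, FPKM, posterior means, other thresholds, each library alone and 2 scales added after the data were seen. The ratio script was tested on simulated data.

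The members, the 5 partner lists, the 11 marker lists and the rules were chosen with earlier results of these data known. Named genes were every member of mean 1 TPM or more and those with a defining role in another cell type, and, for each partner list, the 4 highest and each called gene, of which 1 is not reported here. A planned description of protein features was not done here. A pair of libraries in 1 group leaves no test between conditions.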

Additional observations from a re-analysis of the deposited data

How the results depend on the processing

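No paired analysis was possible because there was 1 group. With either library alone, 29 to 31 genes were detected and 18 to 21 reached 10 TPM (both libraries: 29 and 19). The type II minus type I difference of medians ranged from 1.27 to 1.56 and the delta-1 minus delta-2 difference from 0.48 to 0.92. With means over members these were -0.64, a reversal set by Cdh2, and 1.38. The first was 1.02 over complete coding transcripts and 1.11 from counts per kilobase. With spike-in scaling 8 members were past 1.5-fold higher in replicate 2 (with TMM 3) and 1 higher in replicate 1 (with TMM 3). Spike-in scaling raises every ratio by the same factor of 1.46, so these shifts follow from the choice of scale. The share of all rows past 1.5-fold was taken with TMM only, so counts under the other scalings have no background beside them. Deposited TPM gave 5 higher in replicate 2, deposited FPKM 5 higher in replicate 1, and a limit of 2-fold left 1 higher in replicate 1. Spike-in scaling moved the genes higher in replicate 2 from 3 to 10 catenins and linkers, 2 to 10 proteases, 1 to 4 WAVE genes, 0 to 2 large cadherins and 0 to 1 desmosomal cadherins, and left 0 higher in replicate 1 among linkers and 0 among desmosomal cadherins. Desmosomal cadherins detected were 2 at a limit of 0.5 TPM and 0 at 2 TPM. Why the TMM and spike-in scalings differ was not tested. The number of members with the same leading transcript was 13 also from posterior shares. FPKM shares gave 13 too, which was fixed in advance, since within a library FPKM and TPM differ by the same factor for every transcript. A ratio needs both libraries and cannot be made without either.

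Limits of depth fall on Cdh16, Cdh17 and Cdh26, whose mean counts were 1 to 15.5, and on short models such as Pcdh19-204, whose TPM rests on few reads.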

Other observations

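Ordering transcripts by expected count in place of TPM changed the leading transcript of 7 of the 18 genes with several models. At equal TPM a longer model receives more counts, and a short model can reach a high TPM from few reads. Pcdh11x-202 (8607 bases) led Pcdh11x by count in both tubes, with 2946 and 2036 expected counts against 2498 and 917 for Pcdh11x-203 (4454 bases). In Cdh8 the measures disagreed in replicate 2, where Cdh8-203 had 1326 expected counts and Cdh8-204 had 803. Pcdh19-203, with 1221 and 651, and Cdh7-208, with 435.5 and 430.2, led by count in both tubes. Pcdh15-234 led Pcdh15 by count in both tubes, with 687 and 368, and Cdh23 was led by complete coding models, Cdh23-205 with 143 in replicate 1 and Cdh23-204 with 124 in replicate 2. Of the 5 genes whose leading transcript by TPM differed between the tubes, Pcdh8 alone also changed by count, from Pcdh8-201 (983 and 568) to Pcdh8-204 (889 and 752).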
